A study of Mus musculus with 22 samples.

Results

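The regions described here are stretches of open chromatin that were wide in normal mouse liver. Each was overlapped, at least in part, in every sampled stage of a mouse hepatoblastoma whose driver, YAP1, was switched off. Open chromatin was mapped in 5 libraries, and each library came with a list of intervals. A region was taken when its liver interval lay on chromosomes 1 to 19 or X, was at least 200 bp wide, and overlapped by at least 1 bp an interval of each of the other 4 lists. The members were thus chosen by measured values, the liver width and the overlap. The rule held for 4845 of 566922 liver intervals. The liver list had 5830 intervals of that width, and the other 985 were missing in at least 1 list. Their number and widths are therefore descriptions with no test.

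The open chromatin libraries were 1 each of tumor with YAP1 on (YapOn), of the hepatoblastoma-derived cells 14, 33 and 64 days after YAP1 was switched off (YapOffD14, YapOffD33 and YapOffD64), and of liver labelled WT. The assay was Omni-ATAC: a transposase enters nuclei and inserts adapters wherever DNA is accessible. The labels of these 5 libraries give a treatment and liver as the source, and no strain, age or number of animals. RNA was sequenced from 4 tumors on doxycycline with YAP1 on (YAP1on), 4 tumors off doxycycline for 6 days (day 6), 3 hbHep mice at days 121, 114 and 117, and 3 livers from mice on NTBC (FAH liver). The title of the series uses the word hepatocyte-like for what tumor cells become when YAP1 is inhibited, and hbHep is its name for them. The labels call the day 6 samples tumors and the design text calls them liver, and the FAH liver labels also name hepatocytes. Both tumor groups carry the transgene Tg(CAG-rtTA3), line 4288Slowe/J, on a B6N.FVB(Cg) background, in which a ubiquitous promoter drives the protein that doxycycline activates. All 4 tumors of a group carry 1 mouse code, so the effect of treatment and that of the mouse cannot be told apart. The hbHep and FAH liver mice share a deletion of exon 5 of Fah, an enzyme of tyrosine breakdown, and NTBC is the drug that keeps such mice alive. Strain therefore differs between the tumors and the other 2 RNA groups, and the WT liver of the open chromatin set is not the FAH liver of the RNA set.

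Open chromatin is DNA that nucleosomes leave accessible to proteins. It marks promoters, where RNA polymerase II starts genes, and enhancers, which lie farther away and are used by fewer cell types. Promoters of genes that most cells use are often rich in CG dinucleotides and stay open in many tissues. YAP1 is the coactivator that the Hippo kinases restrain; it works through the TEAD factors and is active in hepatoblastoma, which in people is a tumor of young children.

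The gene that was switched followed the labels in RNA. Yap1 was at 5263, 9763, 7842 and 10750 in the YAP1on tumors, at 1095 to 1248 at day 6, at 937.1 to 1308 in hbHep and at 1136 to 1356 in FAH liver, in the rescaled reads per base of transcript that are described with the RNA results. The YAP1on tumors stood above all other samples, whose groups overlapped.

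The lists differed in form. The liver, YapOffD14, YapOffD33 and YapOffD64 lists held 571520, 1023760, 780497 and 769500 intervals with median widths of 61 to 71 bp. The YapOn list held 829850 intervals with a median width of 21 bp, none wider than 162 bp, and covered 19.7 Mb, against 36.7 to 71.7 Mb in the others. Read depth is not given in these lists, so the depth behind an interval is unknown and its absence from a list is not the absence of open chromatin. With 1 library per condition there are no replicates, and no difference between open chromatin libraries was tested.

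Nearly all regions that dropped out did so because of the YapOn list. Of the 985 wide liver intervals that were missing somewhere, 881 were missing only in YapOn, 6 only in YapOffD14, 2 only in YapOffD33 and 26 only in YapOffD64. The narrow form of the YapOn list moves with this count, and its part in it was not tested.

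Promoter sequences inside the regions are shown for 8 genes that the results below return to: 2 of the widest regions (Mfsd8 and Urah), 3 liver genes (Hpx, Fgg and Cyp2d10), 2 genes that all cells use (Psma2 and Polr2e) and a histone gene (H2ac13). Each is the part of the 300-base RefSeq promoter window (250 bases before to 50 after the start, build GRCm38.p6, the assembly also called mm10) that lies inside the region, read 5′ to 3′ on the gene's strand. Capitals mark matches on either strand to any of 14 short motifs described with the promoter sequences below.
Mfsd8: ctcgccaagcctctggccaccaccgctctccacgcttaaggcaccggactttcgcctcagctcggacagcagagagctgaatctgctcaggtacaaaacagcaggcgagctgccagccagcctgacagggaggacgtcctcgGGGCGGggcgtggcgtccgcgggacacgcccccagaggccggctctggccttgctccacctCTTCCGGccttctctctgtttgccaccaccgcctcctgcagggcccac
Urah: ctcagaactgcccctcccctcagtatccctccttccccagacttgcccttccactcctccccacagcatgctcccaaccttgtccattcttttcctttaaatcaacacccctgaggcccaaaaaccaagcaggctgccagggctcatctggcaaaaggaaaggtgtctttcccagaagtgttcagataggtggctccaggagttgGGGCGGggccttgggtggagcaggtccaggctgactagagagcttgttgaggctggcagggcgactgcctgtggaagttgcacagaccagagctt
Hpx: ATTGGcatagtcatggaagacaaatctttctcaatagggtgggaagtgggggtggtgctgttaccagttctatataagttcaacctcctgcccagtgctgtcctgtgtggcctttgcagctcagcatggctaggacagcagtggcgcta
Fgg: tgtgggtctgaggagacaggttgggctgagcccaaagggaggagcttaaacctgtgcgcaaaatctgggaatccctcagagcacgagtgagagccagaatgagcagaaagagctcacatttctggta
Cyp2d10: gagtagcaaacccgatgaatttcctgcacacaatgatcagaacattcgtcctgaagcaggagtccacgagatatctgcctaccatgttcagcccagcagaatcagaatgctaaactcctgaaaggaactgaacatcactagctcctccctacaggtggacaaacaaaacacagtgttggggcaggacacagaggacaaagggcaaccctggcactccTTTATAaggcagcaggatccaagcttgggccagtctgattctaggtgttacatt
Psma2: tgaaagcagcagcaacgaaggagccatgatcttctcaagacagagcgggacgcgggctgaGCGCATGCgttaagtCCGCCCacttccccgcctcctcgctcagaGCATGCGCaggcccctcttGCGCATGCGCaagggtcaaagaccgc
Polr2e: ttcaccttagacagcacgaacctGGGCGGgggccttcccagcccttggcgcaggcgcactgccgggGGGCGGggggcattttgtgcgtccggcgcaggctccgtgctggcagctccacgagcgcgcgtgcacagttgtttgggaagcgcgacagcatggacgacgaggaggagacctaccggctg
H2ac13: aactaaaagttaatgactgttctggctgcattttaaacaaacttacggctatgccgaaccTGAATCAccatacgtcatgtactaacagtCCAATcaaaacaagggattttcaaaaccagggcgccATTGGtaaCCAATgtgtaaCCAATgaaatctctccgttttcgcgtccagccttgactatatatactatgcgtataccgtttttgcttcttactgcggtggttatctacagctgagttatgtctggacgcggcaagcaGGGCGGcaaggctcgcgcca
The stretches lie at chr3:40846854-40847104, minus strand (Mfsd8), chr7:140834888-140835187, plus strand (Urah), chr7:105600067-105600215, minus strand (Hpx), chr3:83007647-83007773, plus strand (Fgg), chr15:82407172-82407442, minus strand (Cyp2d10), chr13:14612992-14613140, plus strand (Psma2), chr10:80039610-80039794, minus strand (Polr2e) and chr13:21716180-21716461, plus strand (H2ac13). They differ in their make-up. The Mfsd8, Polr2e and Psma2 stretches hold 18, 19 and 13 CG dinucleotides, while the Hpx, Fgg, Urah and Cyp2d10 stretches hold 1, 2, 2 and 3. The Psma2 stretch has matches to the NRF1 motif at 4 positions, 2 of which overlap, and the H2ac13 stretch has 4 CCAAT boxes.

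Wide shared regions lay at gene starts more often than other liver intervals. A region was counted as a promoter region when it came within 1000 bp of the start of a protein-coding gene, and 1530 of the 4845 did (31.58%, 95% Wilson interval 30.29 to 32.9, which covers counting error only). Among wide liver intervals that were missing in at least 1 list, 164 of 985 did (16.65%, 14.45 to 19.1). The share was 21.15% among 227797 narrower liver intervals found in all 5 lists, 10.46% among 333295 narrower intervals that were not, and 14.95% over the whole liver list. Sharing went with a higher share in every width class. Width did so among the shared intervals, and among the missing ones at narrow widths only.

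Among intervals found in all 5 lists, the promoter share was 12.13% at widths under 50 bp, 21.02% from 50 bp, 27.02% from 100 bp and 29.04% from 150 bp to the threshold. It was 31.13% from 200 bp, 29.12% from 250 bp, 36.15% from 300 bp and 39.38% (63 of 160) from 400 bp up. Among intervals missing in some list, the share rose from 6.191% under 50 bp to 14.25% from 50 bp and 18.09% from 100 bp. It stayed between 13.64 and 18.23% from 100 bp to under 400 bp. There was no step at the threshold itself: 30 of the 99 regions of exactly 200 bp were promoter regions (30.3%), and so were 37 of the 116 shared intervals of 199 bp just outside it (31.9%). The wide intervals missing only in YapOn had a share of 17.93% (158 of 881), close to that of all missing ones.

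**Figure D1:**
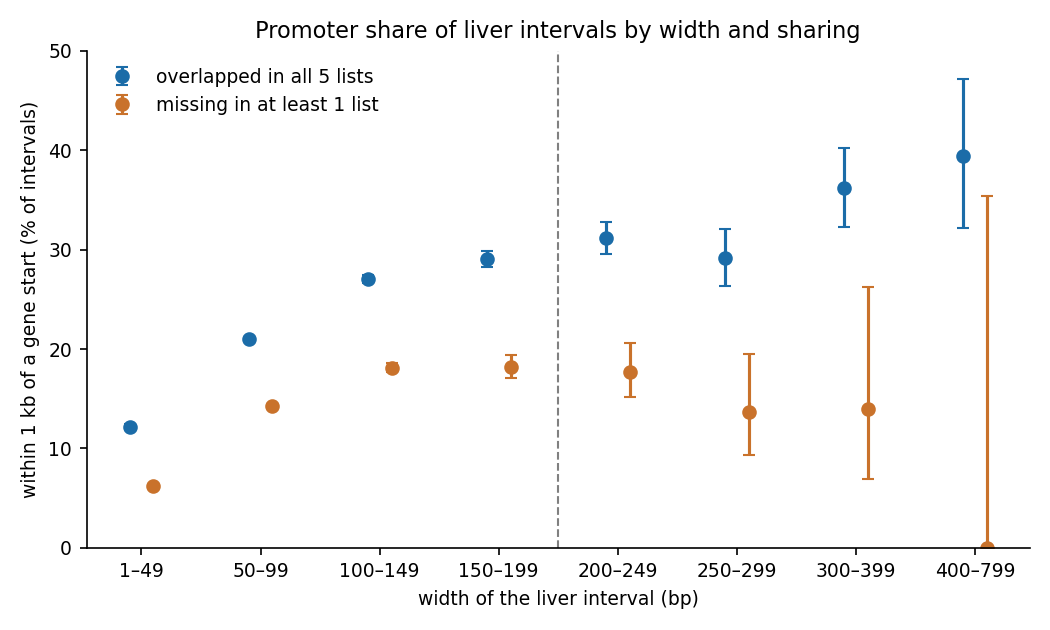
Share of liver intervals within 1 kb of a protein-coding gene start (y axis, %) by interval width (x axis, bp), for intervals overlapped in all 5 lists (blue) and intervals missing in at least 1 (orange); bars are 95% Wilson intervals and the dashed line is the width threshold. The shared intervals lie higher in every width class, at 31.13% against 17.69% from 200 to under 250 bp, and the widest missing class holds 7 intervals.

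The remaining regions lay inside genes or between them. A further 351 regions (7.245%) came within 1000 bp of an end of a gene whose strand the annotation at hand does not give, so they could not be placed at a start or an end. Inside a gene body but away from its start lay 1947 (40.19%), and between genes 1017 (20.99%); the annotation at hand gives gene bodies and no exons, so exon and intron were not separated. Among the wide intervals that were missing somewhere, 51.37% lay inside genes and 26.29% between genes. The median distance to the nearest gene start, counting either end of a gene of unknown strand as a start, was 3160 bp for the shared regions and 10000 bp for the missing ones. On that measure 30.9% of the shared regions and 42.7% of the missing ones lay over 10 kb and up to 100 kb away. Gene starts other than those of proteins were met as well: 548 regions came within 1000 bp of a lncRNA gene, 23 of a miRNA gene and 15 of a tRNA gene.

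Promoter regions mostly sat beside the start used here, which is the upstream end of the RefSeq gene body. Transcripts can start elsewhere: the RefSeq promoter window of Srsf1 uses base 88047373, against 88046499 here. Positions relative to other starts of a gene were not computed. The start base itself lay inside 299 of the 1530 (19.54%). Their midpoints had a median of 196.2 bp downstream of the start (quartiles -142.9 and 519.5 bp, where negative is upstream), and 568 midpoints (37.12%) lay upstream. Counted in steps of 250 bp, the midpoints were spread on both sides, with 291 in the step before the start, 274 in the step after it and 284 in the next.

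**Figure D2:**
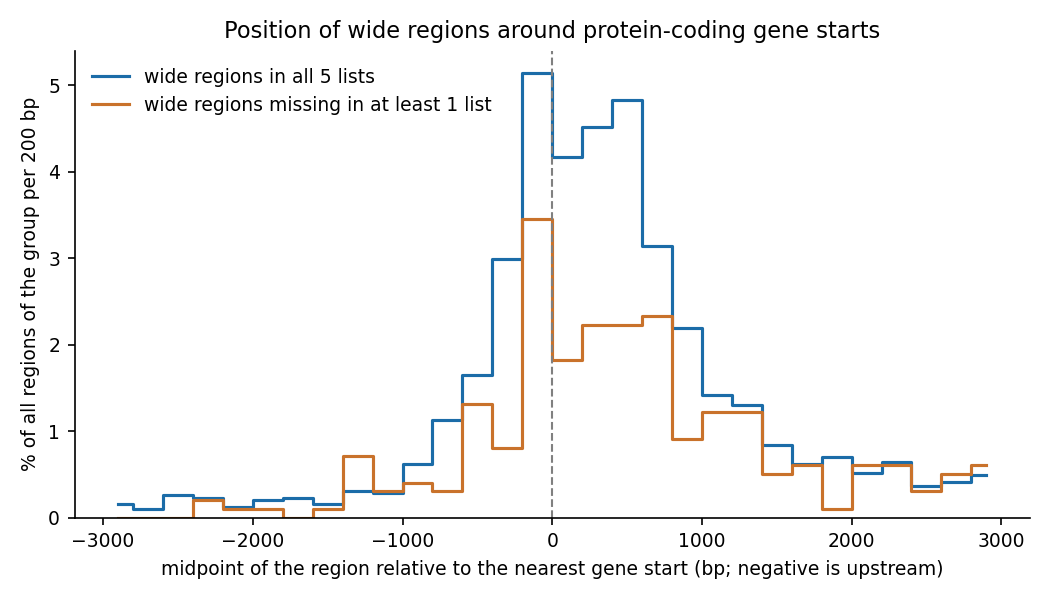
Midpoints of wide regions relative to the nearest protein-coding gene start (x axis, bp, negative is upstream), as the share of all regions of each group per 200 bp (y axis), for regions in all 5 lists (blue) and wide regions missing in at least 1 list (orange). Both groups peak near the start, where the shared regions make up the larger share, and more of the shared midpoints lie downstream than upstream.

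The regions were wide in liver and mostly narrower in the other lists, as a rule that asks for width in liver alone favours. Over the whole lists, YapOffD14, YapOffD33 and YapOffD64 held 14014, 13142 and 12370 intervals of 200 bp or wider, against 5834 in liver. Wide intervals were thus not more numerous in liver. The liver widths of the regions ran from 200 to 799 bp with a median of 231 bp, and 160 were 400 bp or wider. The widest interval that overlapped a region had a median width of 139 bp in YapOffD14, 139 bp in YapOffD33, 136 bp in YapOffD64 and 37 bp in YapOn. It reached 200 bp at 808, 842 and 858 regions in the 3 lists without YAP1 (16.68, 17.38 and 17.71%) and at none in YapOn, whose form does not allow it. Those 3 lists covered a median of 75.33, 75.08 and 74.26% of a region's bases, and YapOn covered 23.47%. All 3 lists without YAP1 had a wide interval at 71 regions, and none of them had at 2867. The promoter share did not go with this count: it was 30.87% where no list without YAP1 was wide, and 32.65, 32.47 and 32.39% where 1, 2 or 3 were.

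The scores of the YapOn list at the regions were described as well. That list gives a whole-number score per interval, the authors' own value, and the highest score within a region had a median rank at the 85.7th percentile of the list. The median was 92.9 for promoter regions and 80.5 for the others. The rank is a description within 1 list, and a wide region has more chances to meet a high score than a narrow one. Every region had to overlap a YapOn interval, and taking the highest of a median of 3 raises the rank by itself. No other set of intervals was ranked, so whether these scores are high for such a choice was not tested.

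Every chromosome held such regions. There were 7.03 per 1000 liver intervals on chromosome X and 9.82 on chromosome 9, the lowest and highest values. Overlapping regions joined into 4707 loci.

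The 10 widest regions lay at starts, inside genes and between genes. The widest, chr3:40846854-40847652 (799 bp), covered the start of Mfsd8, which encodes a lysosomal membrane protein. It was met by intervals up to 185, 153, 135 and 44 bp wide in YapOffD14, YapOffD33, YapOffD64 and YapOn, and these lists covered 86.1, 70.3, 68.6 and 46.6% of it. So the single wide liver interval was broken into several pieces in each of the other lists.

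The start of Hpx, the gene for the plasma heme carrier hemopexin, lay inside chr7:105599595-105600215 (621 bp). The start of Urah, an enzyme of urate breakdown, lay inside chr7:140834666-140835326 (661 bp). Both were met by pieces of similar size: the widest at Hpx were 155, 139, 131 and 32 bp in YapOffD14, YapOffD33, YapOffD64 and YapOn, and those at Urah were 144, 224, 135 and 43 bp. The RNA of these 2 genes differed in behaviour. Hpx had no call in the 3 comparisons, while Urah differed in each of the 3, as described below.

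Of the other widest regions, the 785 bp region nearest to Cd82, a membrane protein of the tetraspanin family, lay 45799 bp from its start, between genes. The 720 bp region nearest to Zmynd11, a reader of histone methylation, lay 1502 bp from the start inside the gene, and the 629 bp region nearest to Ankrd44 lay 3020 bp from the start inside that gene. The nearest genes of the other 4 (Mgat4b, Prex2, Btbd1 and Foxk1) have no strand in the annotation at hand. The regions at Mgat4b, Prex2 and Btbd1 came within 1000 bp of an end of the gene, which may be its start, and that of Foxk1 lay 34042 bp away between genes. These 10 were picked by liver width, and the liver interval was the widest of the 5 at each of them.

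Some genes were surrounded by several wide shared regions. Of 17274 protein-coding genes with a known start, 1501 (8.69%) had such a region within 1000 bp of it, 177 of them 2 regions and 13 of them 3. Within 10 kb, 2482 genes (14.4%) had at least 1 and 34 genes had 4 or more. Errfi1, a feedback inhibitor of the EGF receptor, had 8, with midpoints from -3422.5 to 9592.5 bp relative to the start. Oaf had 7, all from 18.5 to 7999 bp downstream. Slc25a47, a mitochondrial carrier of liver, had 6, and 2 of those overlap each other.

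The remaining genes with the most regions differed in kind. Apoa1, the main protein of high-density lipoprotein, had 6 within 10 kb and none within 1000 bp of its start, where the shared liver interval was narrower than 200 bp. Its regions included chr9:46224636-46224920, with its midpoint at -3852 bp, and chr9:46232472-46232760, at 3986 bp, so the neighbouring genes of the apolipoprotein cluster lie within the same reach. 9230019H11Rik also had 6 within 10 kb, all upstream, with no liver interval at its start. These 6 ran from chr10:3110075-3110304 to chr10:3116609-3116859, beside the first interval of the liver list on that chromosome, which starts at base 3109536. Regions of known unreliable mapping were not filtered here, and their part in this cluster was not tested.

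Shares are given at the start and within 10 kb, and the second window holds the first, so it is read against its own background of 14.4%. Both backgrounds count all 17274 genes, of which 6103 had no liver interval at the start. Lists made up of genes with open starts are thus set partly against genes without them. The lists are small, so a single gene moves a share by several percentage points. Of 21 genes for proteins that hepatocytes secrete, 3 had such a region within 1000 bp of the start (14.3%, against 8.69% of all genes), namely Hpx, Fgg (fibrinogen gamma chain) and Ahsg (fetuin-A). Within 10 kb, 11 of the 21 did (52.4%, against 14.4%), among them Apoa1 with 6, Serpina1a with 3 and Fga, Apoe and C3 with 2 each. The gene for albumin, Alb, had 1 within 10 kb and a narrower shared interval at its start.

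For hepatocyte transcription factors the start share was near the background and the 10 kb share above it. Foxa3 and Prox1 were the only 2 of 22 with a region at the start (9.09%), while 9 of 22 had one within 10 kb (40.9%). These included Rxra, the partner of many nuclear receptors, with 4, and Cebpb and Nr1i2 with 2 each. Hnf4a, Foxa1, Foxa2 and Cebpa had none within 10 kb, and each had a narrower interval at its start that all 5 lists shared. The cytochrome P450 and drug metabolism list had 2 of 21 at the start (Cyp2d10 and Ces1c) and 8 of 21 within 10 kb (38.1%).

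The zones of the liver lobule differed in these counts. Genes of the pericentral zone, which beta-catenin controls, had 0 of 14 at the start and 1 of 14 within 10 kb, Cyp2e1. The urea cycle and periportal list had 3 of 13 at the start: Nags, which makes the activator of the urea cycle, Pck1, which drives gluconeogenesis, and Slc25a13, a mitochondrial carrier. Within 10 kb Ass1, a urea cycle enzyme, had 5 and Pck1 had 4. With lists this small, these counts say nothing particular to either zone.

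Immediate early genes, which signals switch on within minutes, had the highest share of the 21 lists at both distances. Of 20 immediate early genes, 5 had a region at the start (25%): Maff, Klf9, Zfp36, Btg1 and Junb. Within 10 kb 11 did (55%), led by Junb, a subunit of the AP-1 factor, with 5. Of 16 circadian clock genes, Per1, Per3 and Nfil3 had a region at the start (18.8%) and 6 had one within 10 kb (37.5%), among them Dbp, a clock-driven activator, with 5. The clock list ranked below the urea cycle, polymerase and spliceosome lists at the start. Neither list is restricted to liver cells.

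Genes of general functions were uneven. RNA polymerase II, Mediator and chromatin architecture genes had 5 of 22 at the start (22.7%): Polr2e and Polr2h, polymerase subunits, Med1 of Mediator, the insulator factor Ctcf and Wapl, which releases cohesin. Spliceosome and RNA processing genes had 4 of 21 (Srsf1, Sf3a1, Hnrnpk and Ddx5). Proteasome subunits had 1 of 21 (Psma2) and ribosomal protein genes 0 of 18. The last 2 lists were not closed: 19 of the 21 proteasome genes and 17 of the 18 ribosomal protein genes had a narrower interval at the start that all 5 lists shared.

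YAP1 targets and Hippo components had 2 and 3 of 19 at the start (background 8.69%), counts too small to set the lists apart. Among 19 YAP1 target genes, Ccn1 and Crim1 had 2 regions each at the start and no other target had any within 10 kb (10.5% at either distance). Of 19 Hippo pathway components, 6 had a region within 10 kb (31.6%) and 3 had one at the start (15.8%): Stk4, an upstream kinase, Wwtr1, which encodes the YAP1 relative TAZ, and Tead3, a DNA-binding partner. Yap1 itself had a narrower shared interval at its start and no wide region within 10 kb. Of 21 G2/M and mitosis genes 1 had a region at the start, the mitotic kinase Plk1.

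Lists of other cell types and tissues had low counts at the start, where the background of 8.69% leaves room for little more in lists of this size. None of 16 macrophage and Kupffer cell markers, 13 endothelial markers, 13 stellate cell, fibroblast and matrix genes or 19 genes of other tissues had a wide shared region at the start, as none of the pericentral and ribosomal protein genes had. Within 10 kb, 1 of 16 macrophage markers did, 2 of 13 endothelial markers (15.4%) and 2 of 12 lymphocyte markers (16.7%), the last 2 near the background of 14.4%. Of the 19 genes of other tissues, 15 had no liver interval there at all, while all 21 secreted protein genes and 20 of 22 hepatocyte factors had one. Lck, a T cell kinase, was the exception among 12 lymphocyte markers, and Jag1, a Notch ligand of bile duct development, was that among 12 cholangiocyte and progenitor genes. Ahsg was the only one of 14 fetal liver and hepatoblastoma genes, and it is also on the secreted protein list; Afp, Dlk1 and 3 more of these had no liver interval at the start.

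**Figure D3:**
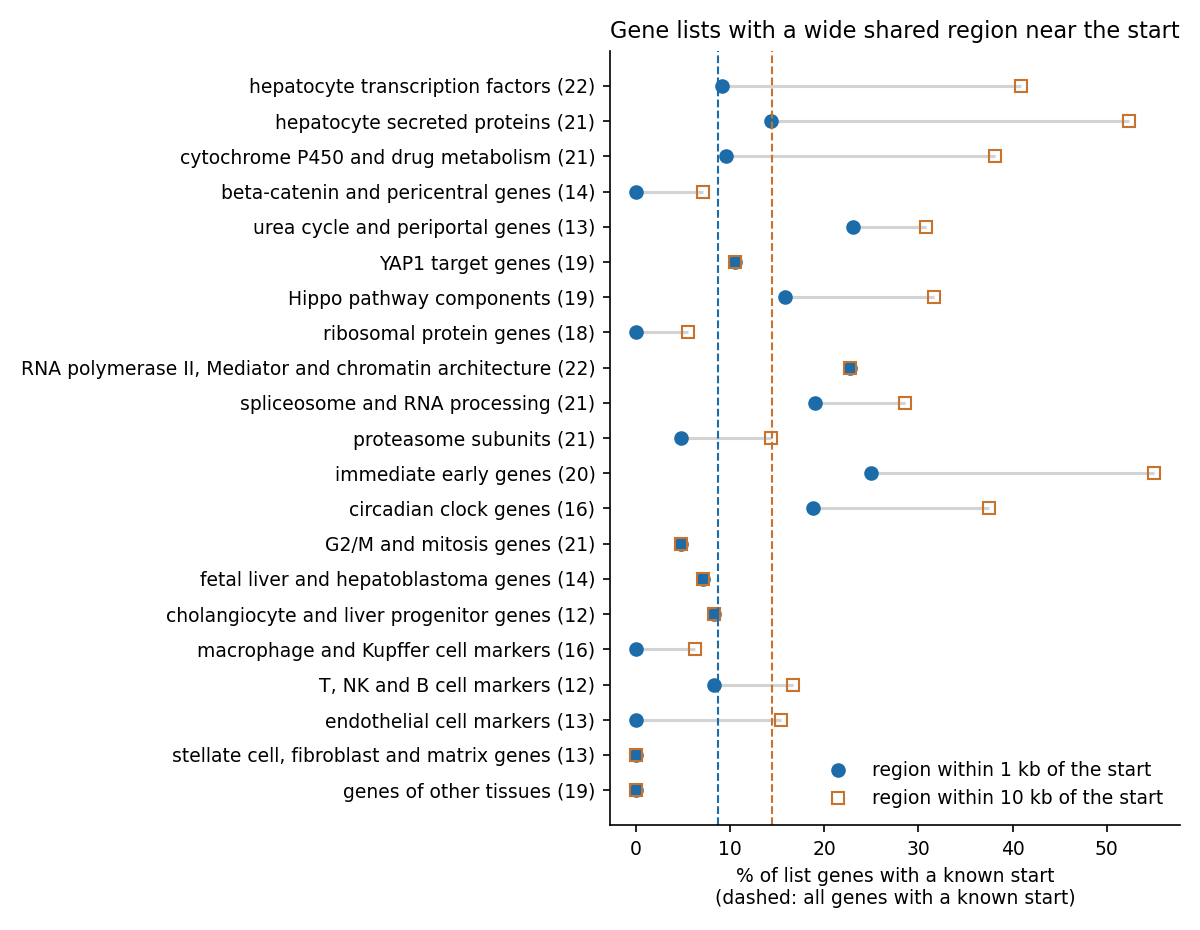
Share of the genes of each list (numbers of genes with a known start in parentheses) that had a wide shared region within 1 kb (filled circles) or 10 kb (open squares) of the start; dashed lines are the shares over all genes with a known start, 8.69% and 14.4%. Immediate early genes and secreted protein genes reach 55% and 52.4% at 10 kb, and markers of macrophages, endothelium and stellate cells have 0% at the start.

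The promoter windows inside wide shared regions were rich in CG, as open promoters of the liver in general were. Of the 17274 promoter windows of 300 bases, 381 were covered by a wide shared region over at least 150 bases. Their median GC content was 62.3% with 22 CG dinucleotides, against 61% and 21 in the 10203 other windows that met a liver interval, and 48% and 3 in the 6690 that met none. Windows with 5 or fewer CG dinucleotides made up 4.72% of those covered, 9.76% of the other windows with a liver interval and 67.3% of those without.

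Short motifs were counted on both strands in these windows; a match is a description of letters, not a binding site. The GC box of SP and KLF factors (GGGCGG) was in 70.6% of the covered windows, 64.6% of the other windows with a liver interval, 18.5% of those without one and 46.9% of all. The NRF1 motif (GCGCATGC) was in 7.35, 5.17, 1.11 and 3.64% in the same order, the CTCF motif (CAGGGGGC) in 5.51, 4.68, 1.69 and 3.54%, and the YY1 motif (AAGATGGC) in 5.51, 4.35, 1.39 and 3.23%. The covered windows thus stood above the other open windows by little, and both stood above the windows without an interval. The ETS motif (CCGGAAG) was in 17.1% of the covered and 18% of the other open windows, and the NF-Y motif (CCAAT), at 37.3 and 39.2%, was as frequent in windows without an interval (40.2%).

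Several motifs with more A and T went the other way. The TATA box (TATAAA) was in 6.56% of the covered windows, 7.02% of the other open ones and 23.6% of those without an interval. The AP-1 motif (TGANTCA) was in 3.94, 4.7 and 10.9%, the TEAD motif (GGAATG) in 10.5, 11.7 and 16%, and the CEBP motif (TTGCNNAA) in 8.14, 8.35 and 13.3%. Among motifs of liver factors, FOXA (TGTTTAC) was in 2.36, 2.49 and 3.72% in the same order, and HNF1 (GTTAATNAT) in 0.262, 0.657 and 1.05%. HNF4A (CAAAGTCC) was in 0.787, 1.51 and 1.45%, and the motif of CREB and ATF (TGACGTCA) in 2.36, 3.27 and 0.957%. For these last motifs the other open windows were not below those without an interval. The HNF4A and HNF1 shares of the covered windows rest on 3 windows and 1 window. The TATA box and GC box may overlap other motifs, and GC content differs between these groups of windows by itself.

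The RNA of genes with a wide shared region at the start was then followed, since the rule did not use RNA. The unit is read here as scaled reads per base of transcript, rescaled between samples and called abundance, so levels of different genes can be set side by side. Of the 1501 genes, 1473 were in the RNA table and 1461 (99.2%) passed the filter of an abundance of at least 10 in at least 3 samples. Their median abundance lay between 510 and 635 in the 14 samples. For genes whose shared interval was narrower it lay between 327 and 382, for genes whose liver interval was missing in some list between 13.6 and 24.6, and for genes without a liver interval between 1.12 and 4.55. These ranges do not overlap. The labels name tumors, liver and, for FAH liver, also hepatocytes, so the mix of cells in each RNA sample is not settled. Fewer cells of a type and less RNA per cell cannot be told apart.

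These genes changed in both directions in each comparison. At day 6 against YAP1on, 259 of the 1461 were higher (17.7%) and 128 lower (8.76%) by limma at an adjusted p under 0.05, against 12.8% higher and 10.8% lower among all 17953 genes tested. Their median log2 fold change was 0.07, against 0.02 over all genes. In hbHep against YAP1on, 491 were higher (33.6%) and 364 lower (24.9%), against 28.8% and 26.3% of all genes, with medians of 0.09 and -0.02. In hbHep against FAH liver, 262 were higher (17.9%) and 324 lower (22.2%), against 19.9% and 17.1%, with medians of -0.08 and -0.01. The comparisons share samples, since YAP1on and hbHep each stand in 2 of them.

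The balance of higher and lower calls moved under quantile normalization in every comparison. With the values as deposited, without rescaling, 63.5% of calls were higher at day 6 (50.9% over all genes). That share was 63.6% in hbHep against YAP1on (57.9% over all genes) and 43.9% in hbHep against FAH liver (53.2%). With quantile normalization in place of the main scaling, the share of calls that were higher went from 66.9 to 53.7% at day 6, where it went from 54.4 to 50.9% over all genes. Higher calls still outnumbered lower ones there (16.4 against 14.2%). In hbHep against YAP1on the share went from 57.4 to 46.9%, against 52.2 to 49.4% over all genes, and the median of the genes with a wide shared region changed sign to -0.06 (log2). In hbHep against FAH liver the share went from 44.7 to 49.5%, against 53.8 to 49.7% over all genes, so the 2 lay close together under quantile normalization. There the median shift per gene was -0.15 (log2) over all genes and 0.06 over those with a wide shared region, while the median over all genes went from -0.01 to -0.07. Leaving out FAH liver 1 turned the balance of that comparison, with 238 genes higher and 231 lower. The share of calls that were higher was then 50.7%, and it rose over all genes too, to 58.9%. Genes with a narrower shared interval had 14.6% higher and 12.4% lower at day 6, 33.3 and 25.6% in hbHep against YAP1on, and 19.9 and 20.4% in hbHep against FAH liver. In the 2 comparisons with hbHep the shares of the 2 classes thus lay within 2 percentage points of each other.

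**Figure D4:**
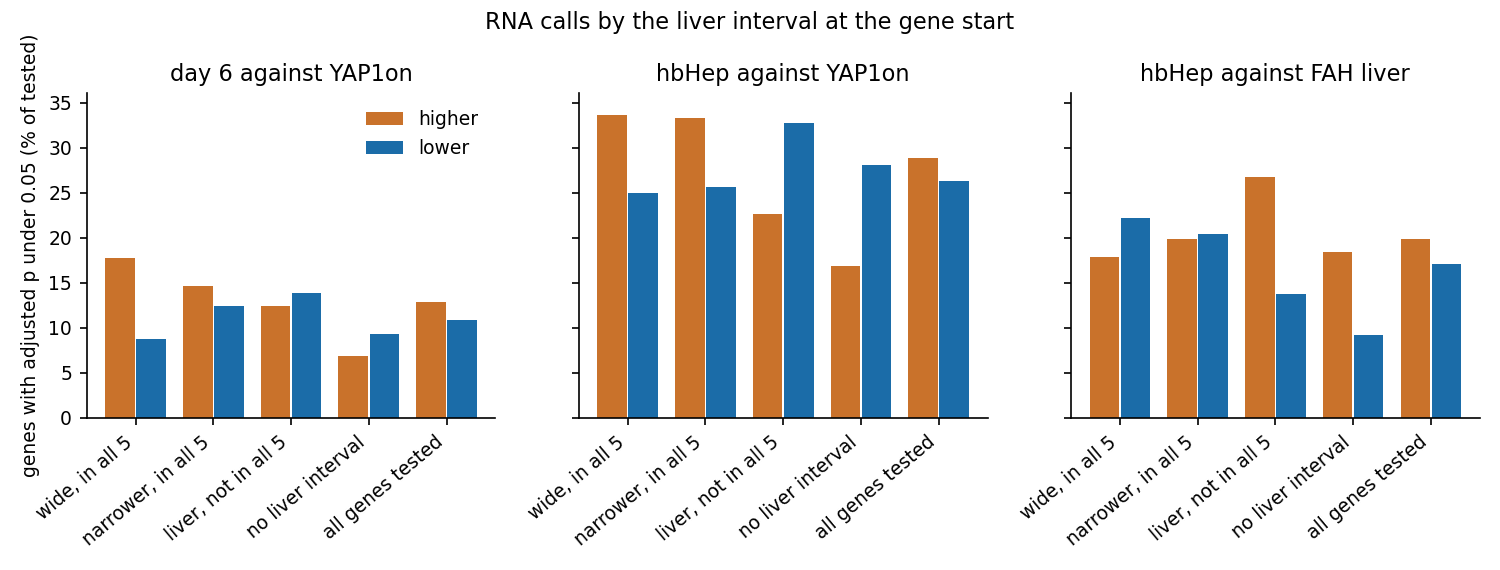
Share of tested genes called higher (orange) or lower (blue) by limma at an adjusted p under 0.05 (y axis, %), by the kind of liver interval at the gene start and for all genes tested, in 3 comparisons of RNA groups. Genes with a wide shared region show 17.7% higher and 8.76% lower at day 6, and resemble genes with a narrower shared interval in the other 2 comparisons.

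At day 6, the largest rises among genes with a wide shared region at the start were of Cyp26a1, Lin7a, Nat8f2, Fabp1 and Slc16a10. Cyp26a1, which breaks down retinoic acid and has the region chr19:37697517-37697719 at its start, was at 266.1, 321.1, 310.1 and 288.4 in the YAP1on tumors and at 2292, 2778, 1982 and 2700 at day 6. It rose 8.15-fold (3.03 ± 0.51 SE in log2 terms, adjusted p = 0.000399 by limma). Its hbHep values ran from 385.3 to 951.1 and its FAH liver values from 396.7 to 4447, and neither hbHep comparison called it (adjusted p = 0.206 and 0.148). Nat8f2, of an acetyltransferase family with close relatives, was at 4695 to 6088 in the YAP1on tumors and at 32670 to 34030 at day 6, a rise of 6.38-fold (log2 SE 0.23, adjusted p = 6.43e-07). Lack of overlap between groups was part of the rule that named these genes and is not repeated as a result.

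The other rises were of Lin7a, a scaffold protein, Fabp1, the fatty acid carrier of hepatocytes, and Slc16a10, a carrier of aromatic amino acids. Lin7a rose 6.41-fold (adjusted p = 1.16e-07) and Slc16a10 rose 4.01-fold (adjusted p = 3.9e-06). Fabp1 was at 3811, 2524, 4586 and 2826 in the YAP1on tumors and at 14670, 17960, 9922 and 15230 at day 6 (4.23-fold, adjusted p = 0.0186). Its call did not hold without YAP1on tumor 2 or without day 6 tumor 2 (adjusted p = 0.0512 and 0.0523).

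Urah, whose start lies in a region of 661 bp, was at 2122, 2019, 2170 and 1477 in the YAP1on tumors and at 3674, 3609, 3178 and 4404 at day 6 (1.92-fold, log2 SE 0.17, adjusted p = 0.000784). It was higher still in hbHep (5683, 3838 and 4889) and in FAH liver (12910, 9753 and 8449), and only the day 6 and hbHep samples overlapped. Hpx stayed between 46160 and 100100 in all 14 samples; its YAP1on tumors, up to 66060, lay below day 6, from 68800, without a call (log2 fold change 0.43, adjusted p = 0.235). Cyp2d10 rose 1.79-fold at day 6 (adjusted p = 0.00144), Ces1c 2.46-fold (adjusted p = 0.0123), Nags 1.74-fold (adjusted p = 0.00627) and Slc25a13 1.42-fold (adjusted p = 0.00419), and Ces1c was not called under quantile normalization (adjusted p = 0.104). Oaf, which had 7 regions within 10 kb, rose 2.16-fold (adjusted p = 0.00254).

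The largest falls at day 6 were of Cdca3 and Plk1. Cdca3, a trigger of entry into mitosis with the region chr6:124828802-124829037 upstream of its start, was at 209.1, 376.6, 283.7 and 250.9 in the YAP1on tumors and at 17.19, 27.35, 10.8 and 22.21 at day 6. It fell 14.2-fold (-3.82 ± 0.29 SE in log2 terms, adjusted p = 2.88e-07). Plk1, with chr7:122158852-122159073 upstream of its start, was at 62.03, 135.8, 104.2 and 114.5 and then at 6.563, 12.96, 6.506 and 10.27, a fall of 10.4-fold (log2 SE 0.33, adjusted p = 2.67e-06). All 21 G2/M genes with a known start fell, with or without a wide region there (median log2 fold change -2.84).

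The other 3 largest falls were of H1f1, H2ac13 and Cenpp. H1f1, a linker histone, fell 8.39-fold (adjusted p = 6.43e-07), H2ac13, a core histone, fell 6.83-fold (adjusted p = 1.37e-06), and Cenpp, a centromere protein, fell 6.58-fold (adjusted p = 1.29e-05). H2ac13, whose promoter is printed above, was at 489.1, 817.3, 797 and 411.7 in the YAP1on tumors and at 72.29, 111.3, 69.1 and 104.2 at day 6. Histone genes are near-identical copies, and the authors' estimation divides reads between them, so the value of a single copy is uncertain.

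Both YAP1 targets with a wide shared region fell at day 6. Ccn1, a matrix protein and classical target, was at 1106, 1414, 1218 and 1617 in the YAP1on tumors and at 678.1, 570.1, 728 and 606.5 at day 6 (2.06-fold, log2 SE 0.20, adjusted p = 0.00103). Crim1, a membrane protein, fell 1.85-fold (adjusted p = 0.0052). Of the 18 YAP1 targets with a known start that were tested, 14 fell and 2 rose, so these 2 behaved as most of the list did. Wwtr1 fell 1.41-fold (adjusted p = 0.0028), while Stk4 and Tead3 had log2 fold changes of -0.04 and -0.08 without a call.

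Per1, Maff and Jag1 fell, while most clock and immediate early genes with a region at the start were not called. Per1, a repressor of the clock, was at 2955, 3657, 4221 and 4139 in the YAP1on tumors and at 1156, 830.8, 1240 and 1088 at day 6 (3.47-fold, adjusted p = 4.71e-05). Time of day of sampling is not given in the labels. Per1 was the only 1 of the 16 clock genes that was called lower. Per3 was at 604.2 to 758.8 in the YAP1on tumors and at 268.8 to 379.9 at day 6, without a call (log2 fold change -1.07, adjusted p = 0.106 by limma). Maff, a small Maf factor, fell 2.28-fold (adjusted p = 1.47e-05). Of the other 4 immediate early genes with a region at the start, Zfp36 rose (log2 fold change 0.45, adjusted p = 0.0143), and Klf9, Btg1 and Junb had no call. Jag1 fell 2.41-fold (adjusted p = 4.27e-05). Jag1 belongs to the cholangiocyte and progenitor list, of which 8 of 11 tested genes fell; the summed level of the 12 genes of that list was 31260 to 41180 in YAP1on tumors and 4417 to 9354 at day 6, with none at 0, and its part in the fall of Jag1 was not tested. The summed level of the 16 macrophage markers also differed, at 34370 to 48820 in YAP1on tumors and 21310 to 27640 at day 6, and its part in these changes was not tested. Other cell types did not all fall: lymphocyte markers had 4 higher and 0 lower of 10 tested, and endothelial markers 4 and 0 of 13. Stellate cell, fibroblast and matrix genes had 0 higher and 4 lower of 13.

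Between hbHep and YAP1on tumors, the largest rises were of Acot11, Acaa1b, Mal, Nudt7 and Blvrb. Acot11, which splits fatty acyl-CoA and has the region chr4:106805114-106805479 upstream of its start, was at 15.81, 24.07, 27.01 and 27.12 in the YAP1on tumors and at 499.8, 395.2 and 288 in hbHep (16.1-fold, 4.01 ± 0.28 SE in log2 terms, adjusted p = 2.43e-08). At day 6 it was at 19.67 to 50.21 and was not called. Acaa1b, a thiolase of peroxisomal fat oxidation, rose 13.3-fold (adjusted p = 2.33e-09) to 21710, 16500 and 29580, and Nudt7, which degrades CoA in peroxisomes, rose 7.75-fold (adjusted p = 3.51e-05) with hbHep values of 9682, 1577 and 6521. The log2 fold change of Nudt7 was 2.95, and 3.73 without hbHep mouse 2. At day 6 Acaa1b was at 3725 to 5528 and Nudt7 at 1426 to 2110, above the YAP1on tumors, whose highest values were 2119 and 750.6.

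The other 2 rises were of Blvrb, a biliverdin reductase, and Mal, a membrane protein of sorting vesicles. Blvrb rose 7.66-fold (adjusted p = 2.95e-08) and Mal rose 10-fold (adjusted p = 1.75e-06) from 9.345 to 21.81 in the tumors to 136.1, 199.4 and 152.4 in hbHep. In FAH liver Mal was at 14.33 to 23.39, within reach of the tumors. Cyp2d10 rose 3.84-fold (adjusted p = 3.65e-07) and Urah 2.46-fold (adjusted p = 2.66e-05).

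The falls in hbHep against YAP1on were mixed. H4c11, a core histone with near-identical copies, was at 704.4, 1013, 1099 and 596.5 in the tumors and at 43.29, 40.97 and 23.99 in hbHep (23-fold, -4.53 ± 0.30 SE in log2 terms, adjusted p = 1.51e-08). Gask1a fell 16.3-fold (adjusted p = 4.87e-09) with a day 6 log2 fold change of 0.01, and Steap2, a metal reductase, fell 13.3-fold (adjusted p = 5.87e-10). Ctxn1 fell 10.1-fold (adjusted p = 1.19e-07). The comparison spans mice and strains as well as YAP1, and these cannot be told apart.

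Serpina1c, Fgg and Ces1c fell too, while the whole secreted protein list had 7 higher and 5 lower of 21. Serpina1c, an alpha-1 antitrypsin with near-identical copies, was at 30770, 52450, 50700 and 42470 in the YAP1on tumors and at 5671, 1119 and 12260 in hbHep (10.1-fold, adjusted p = 8.44e-05). Fgg fell 3.07-fold (adjusted p = 0.00022) to 32340, 16010 and 29570, and Ces1c fell 3.71-fold (adjusted p = 0.000558) after its rise at day 6. Jag1 fell 4.06-fold (adjusted p = 2.5e-07) and Ccn1 2.65-fold (adjusted p = 4.72e-05). Markers of some other cells were lower as well. The cholangiocyte and progenitor sum was 31260 to 41180 in YAP1on tumors against 3001 to 3330 in hbHep, with 7 of 11 tested genes called lower and 1 higher. The macrophage sum was 34370 to 48820 against 11980 to 33530, with 10 of 16 called lower, and the part of either in these falls was not tested. Endothelial markers had 0 higher and 1 lower of 13, and lymphocyte markers 0 and 1 of 10. Stellate cell, fibroblast and matrix genes had 2 higher and 5 lower of 13. The hbHep mice differed among themselves for several of these genes, with mouse 2 lowest for Serpina1c, Fgg and Ces1c. The log2 fold change of Serpina1c, -3.34 with all mice, was -2.37 without mouse 2 and -4.10 without mouse 3, and that of Ces1c, -1.89 with all mice, was -1.29 without mouse 2.

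Between hbHep and FAH liver, Lcn2 and the metallothioneins were higher in hbHep. Lcn2, an iron-sequestering protein of the acute phase with the region chr2:32387968-32388181 upstream of its start, was at 3081, 3001 and 3122 in hbHep and at 38.06, 34.94 and 50.9 in FAH liver (73.5-fold, 6.2 ± 0.2 SE in log2 terms, adjusted p = 3.61e-11). It was just as abundant in YAP1on tumors, at 2873, 3619, 4214 and 4133. Mt2 and Mt1, which bind zinc and copper, were 22.1- and 11.3-fold higher (adjusted p = 4.09e-06 and 9.17e-06), with Mt1 at 13350, 34440 and 7337 in hbHep and at 1920, 1026 and 1190 in FAH liver. Their log2 fold changes fell from 4.468 and 3.496 to 3.712 and 2.896 without hbHep mouse 2, and that of Mt2 was 5.06 without mouse 3. Cln6, an endoplasmic reticulum protein, was 26.4-fold higher (adjusted p = 3.05e-10) and Lrmda 11-fold higher (adjusted p = 1.89e-08).

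Markers of immune cells moved with this comparison. The summed level of 16 macrophage and Kupffer cell markers ranged over 11980 to 33530 for hbHep and 7433 to 12260 for FAH liver, and that of 12 lymphocyte markers over 247.4 to 401.1 and 92.51 to 118.3, with none of the markers at 0. Of the 16 macrophage and Kupffer cell markers, 10 were called higher and 1 lower in hbHep. Of the 10 lymphocyte markers tested, 7 were called higher and 0 lower. Their part in the differences of single genes was not tested.

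The largest falls in hbHep against FAH liver were of Serpina1c, Aspg, Syde2, Aqp8 and Orm3. On the hepatocyte lists, 12 of 21 secreted protein genes and 9 of 22 transcription factors were lower and none higher, but of those with a wide shared region at the start only Fgg was, 1 of 5. Serpina1c was 26.4-fold lower (-4.73 ± 0.57 SE in log2 terms, adjusted p = 1.42e-05), with log2 fold changes of -3.76 without hbHep mouse 2 and -5.49 without mouse 3, and Aspg, an asparaginase, was at 148.1, 305.6 and 394.9 in hbHep and at 3624, 2819 and 3134 in FAH liver (12.1-fold, adjusted p = 4e-06). Syde2 was 10.4-fold lower (adjusted p = 3.05e-06). Aqp8, a channel of the bile canaliculus and mitochondria, was 6.79-fold lower (adjusted p = 1.22e-06), and Orm3, of the acute phase orosomucoids with close relatives, was 6.57-fold lower (adjusted p = 2.76e-06). Aqp8 was at 189.8 to 492 in YAP1on tumors; its hbHep values ran from 617.1 to 754.1 and its FAH liver values from 3902 to 5084. In the same order of groups Orm3 was at 8.244 to 13.42, 59.08 to 98.68 and 351.9 to 575.7. For both genes hbHep stood between those 2 groups, and its lack of overlap with FAH liver was part of the naming rule. The day 6 tumors overlapped hbHep, at 717.4 to 960.1 for Aqp8 and 53.47 to 84.33 for Orm3.

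Of the 5 genes with the most regions within 10 kb, Slc25a47 and Errfi1 were called lower in hbHep than in FAH liver. Oaf and Apoa1 were not (log2 fold changes of -0.56 and -0.90, adjusted p = 0.116 and 0.0539), and 9230019H11Rik has no RNA value. Slc25a47 was at 2443, 1438 and 2854 in hbHep and at 10110, 9415 and 9271 in FAH liver (4.45-fold lower, adjusted p = 1.71e-06). Errfi1 was 2.32-fold lower (adjusted p = 0.00111), Fgg 3.03-fold lower (adjusted p = 0.000863), Pck1 2.87-fold lower (adjusted p = 0.00263) and Urah 2.15-fold lower (adjusted p = 0.000457) in hbHep. Wwtr1 went the other way, at 2749, 2208 and 2255 in hbHep and 698.4, 578.2 and 653.5 in FAH liver (3.73-fold higher, adjusted p = 2.78e-08). Ctcf stayed between 290 and 410.2 in all 14 samples and Foxa3 and Prox1 between 1026 and 4124, with no call in any comparison.

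**Figure D5:**
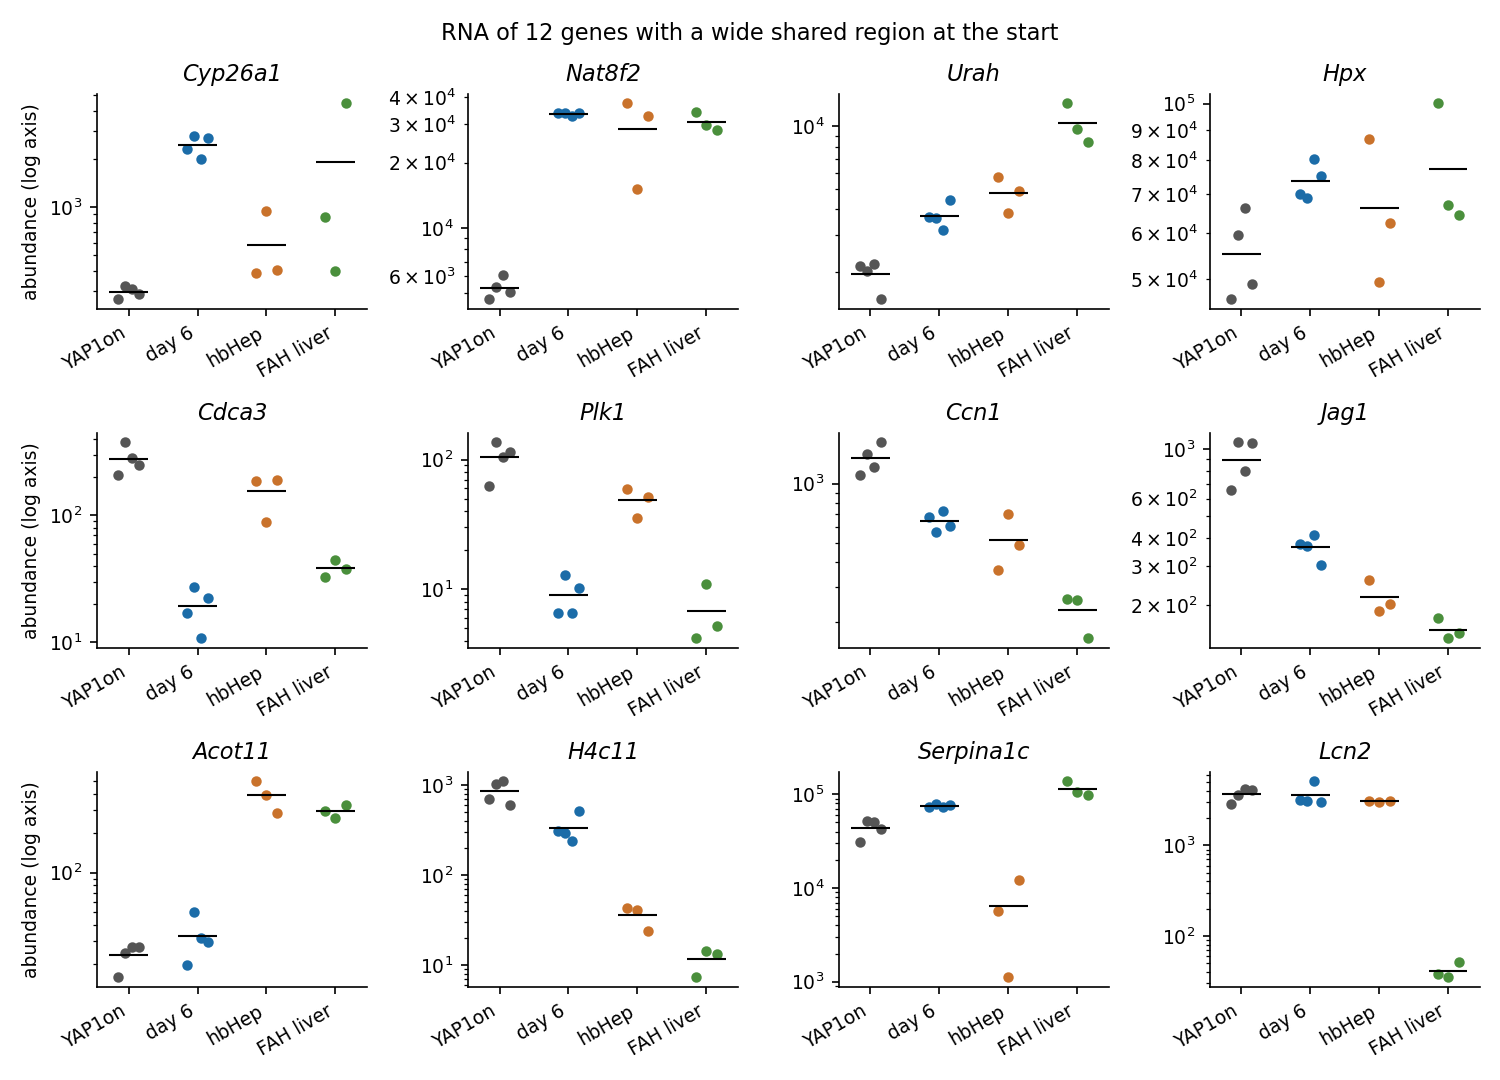
Abundance (y axis, log scale, scaled reads per base) of 12 genes with a wide shared region at the start in each of the 14 samples, by group (x axis); points are samples and lines are group means. Cdca3 and Plk1 fall between YAP1on and day 6, Acot11 is high in hbHep and FAH liver, H4c11 has means that fall from 853.4 in YAP1on to 11.57 in FAH liver, and Lcn2 is low in FAH liver alone.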

How the data were processed

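Each open chromatin library came as a deposited list of intervals on mm10. The submitters' processing notes name Picard, SAMtools, BWA, cutadapt and bcl2fastq. For the interval caller, and for whether read ends were shifted, the sources used here give nothing. The YapOn list also holds a whole-number score, deposited by the authors without a stated meaning. Intervals were used as deposited, and starts and ends are given 1-based. Of the liver intervals, 458 with no width were left out. No genome sequence was used here: gene bodies came from RefSeq (GRCm38.p6) and strands from its promoter table, which gave a start for 17274 of 21631 protein-coding genes (79.9%), with none on chromosome 18. Sequence features were therefore counted in RefSeq promoter windows rather than at region midpoints. Unless stated otherwise, the start of a gene is the upstream end of its RefSeq gene body. It can differ from the start that a promoter window uses.

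The authors deposited RNA as a signal per gene and library, read as scaled reads per base from kallisto 0.45.0 and sleuth, per the submitters' processing notes. kallisto divides reads among similar transcripts, so values of near-identical genes are uncertain. Technical libraries of an hbHep mouse were averaged, which left 14 samples, and median-of-ratios factors rescaled the samples. Of 36555 genes, 35912 had a symbol and 16847 matched a known start. limma 3.58.1 in R 4.3.3 was run on log2(abundance + 1), with a trend, in 1 model of the 4 groups, for genes with an abundance of at least 10 in at least 3 samples (17953), with Benjamini-Hochberg adjustment over all of them and a threshold of 0.05. That scale understates fold changes of low genes, and p-values are limma's. It was tested on simulated data. Read depth per RNA library is not in the table used here. Tumors of 1 mouse and separate mice share the model's estimate of spread, so p-values between tumor groups measure spread between tumors.

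Genes were named by rule: nearest genes of the 10 widest regions, the 5 genes with most regions within 10 kb, up to 4 genes with and 4 without a region per gene list, and per RNA comparison the 5 largest rises and falls among called genes with a mean of at least 100 in 1 group and no overlap of groups. Further list genes were named after their values were seen. The members and lists were chosen with earlier results of these data known. Wilson intervals are at 95%. Alternatives covered width, overlap, lists required, promoter window, gene starts, pseudocount, filter, scaling and left-out samples.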

Additional observations from a re-analysis of the deposited data

Results flagged for a closer look

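Among the 29 genes named for their RNA change, each tumor group of 4 samples was checked for a sample far from the other 3, which made 58 checks; chance alone flags about 1 in 20 such groups, and 4 were found. Lin7a was at 259.7 in day 6 tumor 3, against 315.9 to 318.6 in the others. Lcn2 was at 5132 in day 6 tumor 3, against 3047 to 3198. Mt1 was at 5787 in YAP1on tumor 1, against 9213 to 9750, and at 13290 in day 6 tumor 2, against 15660 to 15890. Lin7a in day 6 tumor 3 stayed far above the YAP1on tumors, and neither Lcn2 nor Mt1 was called between the tumor groups.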

How the results depend on the processing

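The number of wide shared regions follows the least width: it was 16546 at 150 bp, 716 at 300 bp and 31 at 500 bp, and 54438 when intervals within 100 bp were merged first. Asking for 50% of each region to be covered in every other list left 386, and asking it of each list but YapOn, a setting added after seeing the data, left 4053. The promoter share was 29.78% at 150 bp, 36.87% at 300 bp, 23.9% after merging and 29.48% when YapOn was not required. It was 24.19 and 36.84% with windows of 500 and 2000 bp, 35.69% with starts of genes of every type, 36.95% with every transcript start, and 38.82% with both ends of genes of unknown strand, a setting added after seeing the data. Wide regions missing in a list had 11.98, 21.22 and 20.2% with the 500 bp window, the 2000 bp window and every transcript start, below the shared regions each time. Among the RNA counts, quantile normalization gave 207 genes lower at day 6 (14.2%, against 13.3% of all genes). For hbHep against FAH liver, a model of those 2 groups alone gave 169 higher (11.6%) and 187 lower (12.8%). Over all genes it gave 12.5 and 9.93%. Leaving out 1 sample at a time gave 189 to 244 higher and 95 to 120 lower at day 6, 437 to 485 and 322 to 364 in hbHep against YAP1on, and 221 to 248 and 231 to 333 in hbHep against FAH liver. At day 6 that was 12.9 to 16.7% higher and 6.5 to 8.21% lower, against 9.66 to 11.7 and 8.36 to 10.1% of all genes. In hbHep against YAP1on it was 29.9 to 33.2 and 22 to 24.9%, against 26 to 27.8 and 22.8 to 24.6%. In hbHep against FAH liver it was 15.1 to 17 and 15.8 to 22.8%, against 17.6 to 19.2 and 12.6 to 17%. Same-numbered samples did not deviate together (correlations of -0.23 to 0.187), so the replicate number pairs nothing. With that number as a replicate block, 169 genes were higher (11.6%) and 208 lower (14.2%) in hbHep against FAH liver. Over all genes it was 12.5 and 10.5%. Of 54 named changes, 52 kept direction and call under every setting run. They were picked from calls in the same data, which by itself favours this outcome. Beside those given with the results, these changes moved by over 1.5 times in fold, given as log2 fold changes: with a pseudocount of 10, Plk1 at day 6 was -2.55 and Ctxn1 in hbHep against YAP1on -2.66. Under quantile normalization, Ces1c at day 6 was 0.68, and in hbHep against YAP1on Serpina1c was -4.10, Cyp2d10 1.28, Fgg -2.29 and Ces1c -2.69. In hbHep against FAH liver, Serpina1c was -3.98, Fgg -0.90 and Errfi1 -0.58. The repeat filter could not be run without a genome. Depth is unknown for both assays.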
